A study of Homo sapiens with 6 samples.

Results

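RAB31 and 5 other RAB GTPases of the RAB5 subfamily, namely RAB22A, RAB5A, RAB5B, RAB5C and RAB21, were followed by RNA sequencing in 22RV1 cells, an established human line of castration-resistant prostate cancer. The 6 genes were taken by symbol from the deposited table of 24872 rows, where each symbol had a single row, and all 6 were expressed above the filter on low values. There were 6 libraries in 3 groups of 2, all labelled day 2. They were NC cells, cells labelled for overexpression of MAGI2-AS3, a long noncoding RNA (OE), and cells labelled miR-106a-5p mimics (mimics). The labels speak of overexpression plasmids, so that the form in which the microRNA was given, and what the NC cells received, are uncertain. The labels do not say that the 2 libraries of a group came from separate cultures, and p-values therefore rest on the spread within these pairs of libraries alone, and that spread may be technical.

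RAB proteins are small GTPases that mark membranes. Bound to GTP, they recruit effector proteins to a vesicle or endosome; bound to GDP, they are taken off the membrane by a carrier protein and recycled. The RAB5 subfamily works at the start of endocytosis: the RAB5 proteins drive fusion of early endosomes, RAB21 takes part in the endocytosis of integrins, RAB22A in recycling from early endosomes, and RAB31, its closest relative, in traffic between the trans-Golgi network and endosomes. The series title places MAGI2-AS3, miR-106a-5p and RAB31 in a single axis in prostate cancer cells. A microRNA is loaded into an Argonaute protein and, in general, lowers messenger RNAs whose 3′ UTR pairs with its seed, bases 2 to 8 from its 5′ end.

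The microRNA and its matches in the members are shown because the title links miR-106a-5p with RAB31. The mature miR-106a-5p of RefSeq (GRCh38.p14, chromosome X, 134170244 to 134170266, minus strand) has 23 bases, and 8 of 2370 mature microRNAs in the RefSeq table, miR-17-5p among them, share its seed, here in capitals:
miR-106a-5p: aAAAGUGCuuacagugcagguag
miR-17-5p: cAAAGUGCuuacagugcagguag

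The 3′ UTR of RAB31 in its GENCODE 29 transcript RAB31-207 (3226 bases) held 1 match to the seed. It was an 8-base match (GCACTTTA, pairing with bases 2 to 8 and with an A opposite base 1), at position 999 of the UTR and chr18:9860316-9860339 with its flanks, on the plus strand of GRCh38. RAB5B, whose UTR of 4471 bases lies on chromosome 12, held an 8-base match at position 964 (chr12:55993168-55993191) and a 7-base match (GCACTTT) at position 145 (chr12:55992349-55992371). RAB22A, with a UTR of 7804 bases on chromosome 20, held 3 matches of 7 bases, at positions 341 (chr20:58360036-58360058), 544 (chr20:58360239-58360261) and 3126 (chr20:58362821-58362843). All are shown as DNA on the plus strand with 8 bases on either side, and capitals mark the match:
RAB31, 8 bases: aagtgtcaGCACTTTAaaattcta
RAB5B, 8 bases: tgcagtttGCACTTTAattgatgg
RAB5B, 7 bases: ccgtcatgGCACTTTttaacgct
RAB22A, position 341: gaaaattaGCACTTTtgtggttc
RAB22A, position 544: tctctaaaGCACTTTtcattgaa
RAB22A, position 3126: ttgtgtacGCACTTTctggatgt

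RAB21, with the longest UTR of the 6 at 14612 bases, held 4 matches of 7 bases, of which 1 was of the form CACTTTA. The principal transcripts of RAB5A (UTR of 1352 bases) and RAB5C (805 bases) held none of these letters. The search used GCACTTTA, GCACTTT and CACTTTA on the transcript strand, and a GCACTTTA was counted once. CACTTTA pairs only with bases 2 to 7 of the microRNA and has an A opposite base 1. It was counted among the 7-base matches here and below. Among 12132 expressed genes with an annotated 3′ UTR, 28.0% held any such match and 4.88% an 8-base match, and the shares grew with length. For UTRs of a length close to that of RAB31, 53.3% of 1398 genes held a match and 9.51% an 8-base match, and for those near the length of RAB5B the shares were 64.6% and 13.2% of 1009. In RAB5B the annotated isoforms differ: RAB5B-202 (UTR of 874 bases) holds 1 match and RAB5B-211 (274 bases) none. None of the 26 annotated transcripts of MAGI2-AS3 held any of these letters, and the level of MAGI2-AS3 itself was not analysed here, which leaves its overexpression unchecked.

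Libraries of the same group correlated at 0.992 for NC, 0.994 for OE and 0.983 for mimics over the tested rows (rows are no replicates of each other). The mimics libraries stood apart in RNA composition. Mitochondrially encoded genes took 6.23% of the FPKM in mimics replicate 1 and 0.533% in replicate 2, against 8.29% to 9.67% in the other 4 libraries, and cytosolic ribosomal protein genes took 20.5% and 18.1% against 13.0% to 15.4%. All 10 prostate luminal markers were expressed, at a summed 973 to 1252 FPKM in NC and OE and 1450 and 1449 in mimics. Markers of basal prostate cells, leukocytes and endothelium summed to under 1 FPKM in every library. The 6 fibroblast markers summed to 85.95 to 90.6 FPKM in NC and OE and to 179.6 and 108 in mimics, nearly all of it LUM. The 4 of them that could be tested, LUM, DCN, COL1A1 and COL3A1, were all higher in both mimics libraries than in both NC libraries (median log2 difference 0.68), and none passed by limma (adjusted p = 0.0809 to 0.182). COL1A1 was lower in OE than in mimics (-1.06, adjusted p = 0.0229). COL1A2 was listed at 0 in 5 libraries and at 0.00836 FPKM in NC replicate 1, and PDGFRB did not exceed 0.141 FPKM. Whether the shifts in luminal and fibroblast markers bear on the RAB results was not tested.

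In NC cells the RAB5 paralogs made up most of the subfamily's messenger RNA, and RAB31 was its rarest member. Levels are in FPKM, fragments scaled to transcript length and to the mapped fragments of the library, a unit that divides out length and so allows levels of different genes to be compared. RAB5C stood at 78.9 and 86.98 FPKM in NC replicates 1 and 2, RAB5B at 39.04 and 41.2, RAB5A at 23.9 and 22.2, RAB22A at 6.72 and 6.01, RAB21 at 6.59 and 5.76, and RAB31 at 1.85 and 1.597. In NC, RAB5C lay above 94.4% of the tested rows and RAB31 above 18.3%. The order RAB5C, RAB5B, RAB5A held in all 6 libraries with no overlap between neighbours, and RAB31 was lowest in every library. RAB22A and RAB21 were not separated in NC, where their ranges overlapped, and RAB21 was the higher in the 2 OE and the 2 mimics libraries, with a ratio of RAB22A to RAB21 of 0.962 and 0.828 in OE and 0.911 and 0.871 in mimics against 1.02 and 1.04 in NC.

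**Figure D1:**
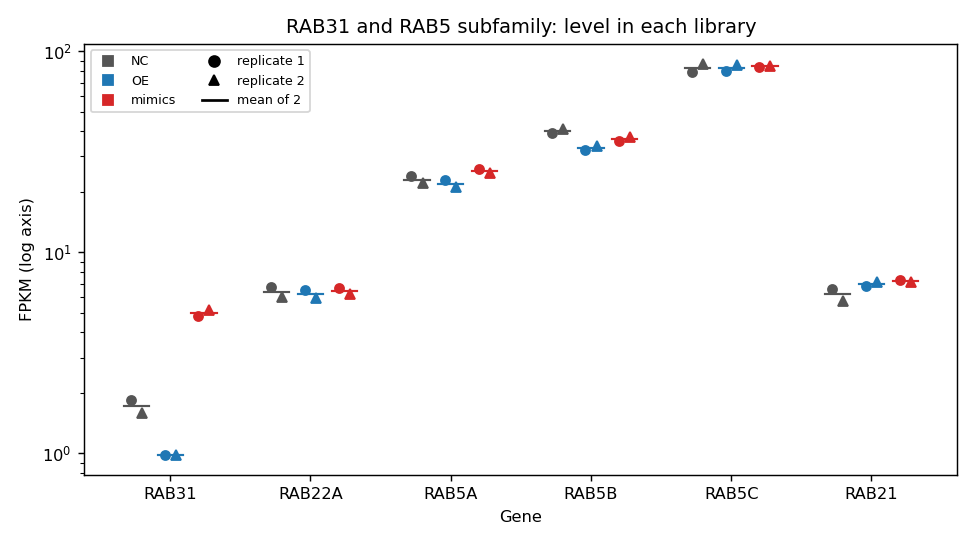
Level of each of the 6 genes (x axis) in FPKM on a log axis (y axis) in NC, OE and mimics, with circles for replicate 1, triangles for replicate 2 and a bar at the mean of 2. RAB31 ranges from 0.98 FPKM in OE to 5.18 in mimics, while the points of the other 5 genes stay close together across the groups.

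RAB31 (ENSG00000168461), which takes part in the delivery of mannose 6-phosphate receptors and in the traffic of EGFR, was the member whose level varied most between the groups. The gene covers 154387 bases of chromosome 18 (9708165 to 9862551, plus strand of GRCh38) and its transcript has 7 exons, 588 coding bases and 4055 bases in all. Its level was 1.85 and 1.597 FPKM in the NC libraries, 0.980 and 0.986 in the OE libraries, and 4.82 and 5.18 in the mimics libraries. The groups did not overlap: both OE libraries were the lowest and both mimics libraries the highest of the 6. The mean was 1.72 ± 0.176 FPKM for NC, 0.983 ± 0.00442 for OE and 5.00 ± 0.255 for mimics (SD, n = 2 each). RAB31 was in this way lowest in the libraries labelled MAGI2-AS3 overexpression and highest in those labelled miR-106a-5p mimics. Its difference between OE and NC did not pass after adjustment (adjusted p = 0.413 by limma).

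The comparison of mimics with NC asked what changed in cells given miR-106a-5p; the level the microRNA reached was not analysed here. RAB31 rose, by a ratio of mean FPKM of 2.90 and by 1.31 on the log2(FPKM + 0.5) scale (SE 0.16, 95% confidence interval 0.95 to 1.67, adjusted p = 0.00356 by limma with Benjamini-Hochberg adjustment over 13998 rows). It was the only one of the 6 members called, against 8.0% of all tested rows called at an adjusted p under 0.05. Its change was larger in size than that of 99.2% of the rows, and it ranked 81 by p among the rows. The ranges of mimics and NC did not overlap for 4 of the 6 members (RAB31, RAB5A and RAB21 higher, RAB5B lower), a share near the background, in which 52.9% of rows did not overlap. The mimics libraries differed from NC in mitochondrially encoded RNA. Without mimics replicate 2, which had the least of it, the log2 difference of RAB31 was 1.26, and without mimics replicate 1 it was 1.36. Each of these fits leaves a single mimics library and so no spread within mimics, and only the size of the difference is given. With all libraries rescaled without mitochondrially encoded genes, the difference of RAB31 was 1.23 (adjusted p = 0.00608 by limma).

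RAB22A, the closest relative of RAB31, was 6.72 and 6.01 FPKM in NC, 6.51 and 5.91 in OE, and in mimics 6.63 and 6.18, with overlap between all 3 groups. Its difference between mimics and NC was 0.01 on the log2 scale (-0.29 to 0.31, adjusted p = 0.972), an interval that spans ratios of 0.818 to 1.24. RAB5A, which with RAB5B and RAB5C drives the fusion of early endosomes, was 23.9 and 22.2 FPKM in NC, 22.9 and 21.04 in OE, and in mimics 26.0 and 24.96. Both mimics libraries of RAB5A lay above the other 4, but the difference from NC of 0.14 did not pass (-0.09 to 0.38, adjusted p = 0.42). RAB5C, the most abundant member, was 78.9 and 86.98 FPKM in NC, 79.6 and 85.1 in OE, and in mimics 83.9 and 84.8. The mimics libraries of RAB5C fell inside the range of NC, with a difference of 0.03 (-0.20 to 0.26, adjusted p = 0.897).

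RAB5B was 39.04 and 41.2 FPKM in NC, 32.4 and 33.8 in OE, and in mimics 36.01 and 37.5. The 3 groups were separate, with NC highest and OE lowest. Its difference was -0.12 between mimics and NC (-0.34 to 0.09, adjusted p = 0.452) and -0.27 between OE and NC (-0.49 to -0.06, unadjusted p = 0.0198, adjusted p = 0.616), so that neither passed. RAB21, a GTPase of integrin endocytosis, was 6.59 and 5.76 FPKM in NC, 6.77 and 7.14 in OE, and in mimics 7.28 and 7.10. Both treated groups of RAB21 lay above NC and overlapped each other, with differences from NC of 0.21 in mimics (-0.08 to 0.50, adjusted p = 0.344) and 0.16 in OE (-0.13 to 0.45, adjusted p = 0.996). OE and mimics were compared with the same NC libraries. The widths of these intervals leave room for changes of up to 1.41-fold in RAB21 of mimics cells, and a p that misses the threshold does not show that the genes were unchanged.

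**Figure D2:**
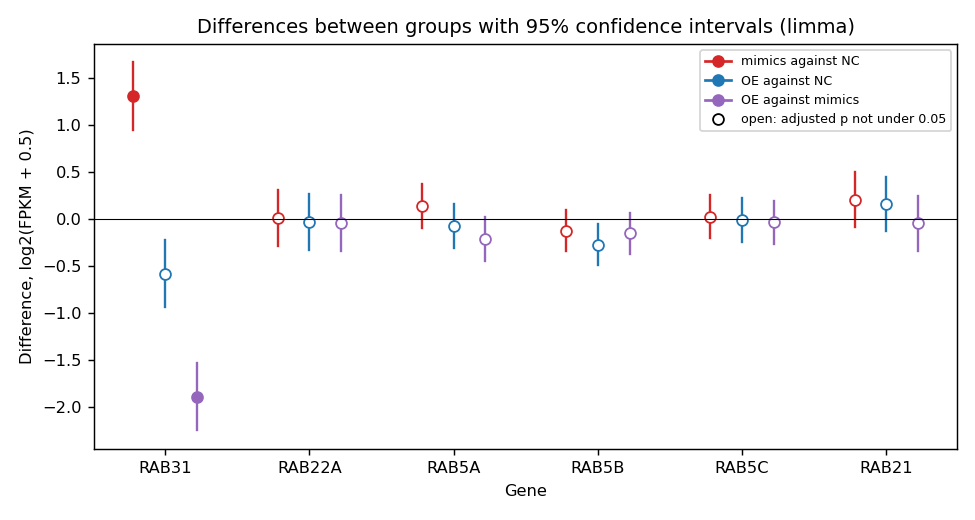
Difference between groups on the log2(FPKM + 0.5) scale (y axis) for the 6 genes (x axis) in the 3 comparisons, with points for limma estimates and lines for 95% confidence intervals, not adjusted for multiple testing. The 2 filled points, which passed the threshold, are RAB31 in mimics against NC (1.31) and in OE against mimics (-1.89).

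The comparison of OE with NC asked what changed with overexpression of MAGI2-AS3. RAB31 was lower in both OE libraries than in both NC libraries, at 0.571 of the NC mean. Its difference of -0.58 on the log2 scale (SE 0.16, 95% confidence interval -0.94 to -0.22, unadjusted p = 0.00539) did not pass after adjustment (adjusted p = 0.413 by limma). Over the other settings, apart from leaving out 1 library, the adjusted p by limma was 0.163 to 0.611. No member passed, where 36 rows of 13998, or 0.257%, were called and 907 had an unadjusted p under 0.05, RAB31 and RAB5B among them. The ranges of 3 of 6 members did not overlap (RAB31 and RAB5B lower, RAB21 higher), against 41.9% of all rows. A more negative change than that of RAB31 was seen in 1.55% of rows. RAB5A (-0.07, -0.30 to 0.16), RAB22A (-0.03, -0.33 to 0.27) and RAB5C (-0.01, -0.24 to 0.22) had adjusted p of 0.998, 0.999 and 1.

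Set directly against mimics, OE cells had 0.197 of the mean RAB31 level, a difference of -1.89 on the log2 scale (SE 0.16, 95% confidence interval -2.25 to -1.53, adjusted p = 0.000619). RAB31 was again the only member called, where 7.84% of all rows were called, and 0.193% of rows had a more negative change. The ranges of 3 members, RAB31, RAB5A and RAB5B, did not overlap, each lower in OE, against 55.7% of all rows. The differences of RAB5A (-0.21, -0.45 to 0.02, adjusted p = 0.226) and RAB5B (-0.15, -0.37 to 0.07, adjusted p = 0.361) did not pass. Those of RAB22A, RAB5C and RAB21 lay between -0.05 and -0.03, with adjusted p of 0.854 to 0.866.

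**Figure D3:**
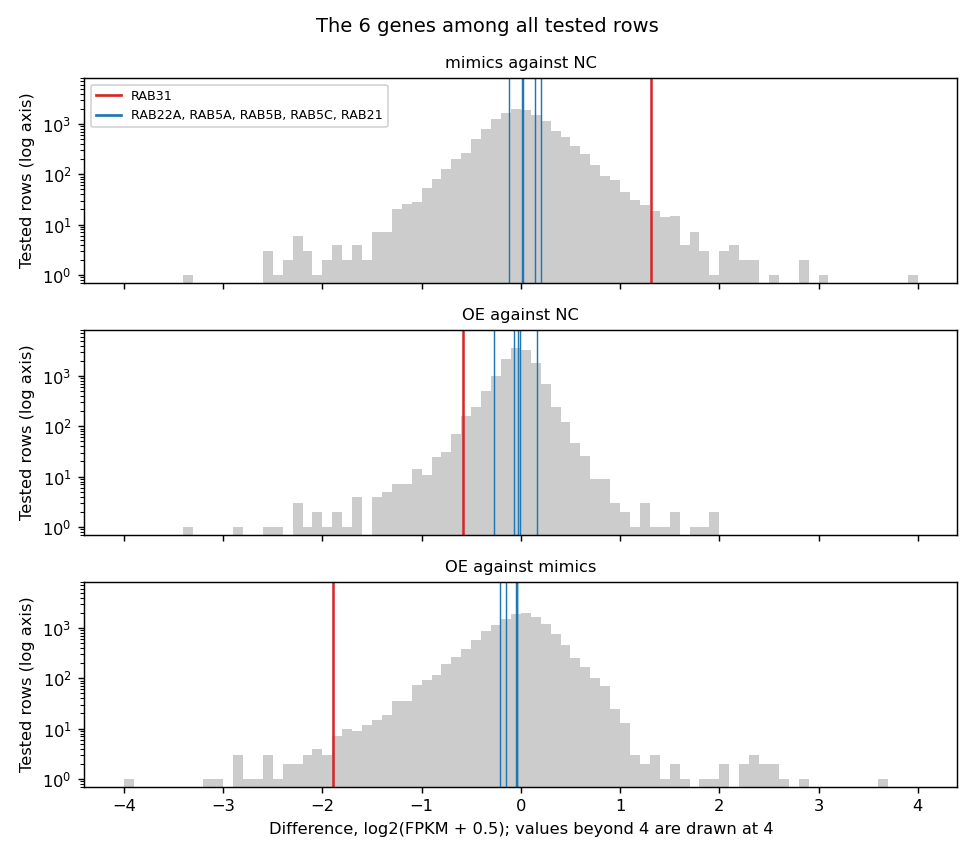
Number of tested rows (y axis, log axis) by difference on the log2(FPKM + 0.5) scale (x axis, bins of 0.1) in each comparison, with lines at the 6 genes. RAB31 lies at 1.31, -0.58 and -1.89 from top to bottom, away from the bulk, and the other 5 genes lie between -0.27 and 0.21.

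Ratios within a library do not depend on how that library was scaled. The ratio of RAB31 to RAB22A was 0.275 and 0.266 in NC, 0.150 and 0.167 in OE, and in mimics 0.726 and 0.837. It was thus lowest in both OE and highest in both mimics libraries, with no overlap between groups. RAB31 held 1.18% and 0.98% of the summed FPKM of the 6 genes in NC, 0.657% and 0.640% in OE, and in mimics 2.93% and 3.12%. The sum itself was 157 and 164 FPKM in NC, 149 and 154 in OE, and in mimics 165 and 166, since the 3 RAB5 genes held 88.6% to 91.8% of it in all libraries. For every RAB31 fragment per kilobase there were 42.8 and 54.5 of RAB5C in NC, 81.2 and 86.3 in OE, and in mimics 17.4 and 16.4. These ratios are given as a description and were not tested.

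Among the RAB5 paralogs, RAB5B held 27.5% and 27.4% of the 3 genes' FPKM in NC, 24.01% and 24.2% in OE, and in mimics 24.7% and 25.5%. The share of RAB5B was thus higher in both NC libraries than in the other 4. RAB5C held 55.6% and 57.8% in NC, 59.03% and 60.8% in OE, and in mimics 57.5% and 57.6%. RAB5A held 16.8% and 14.8% in NC, 16.95% and 15.03% in OE, and in mimics 17.8% and 16.9%, so that OE overlapped both other groups and mimics lay just above NC.

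**Figure D4:**
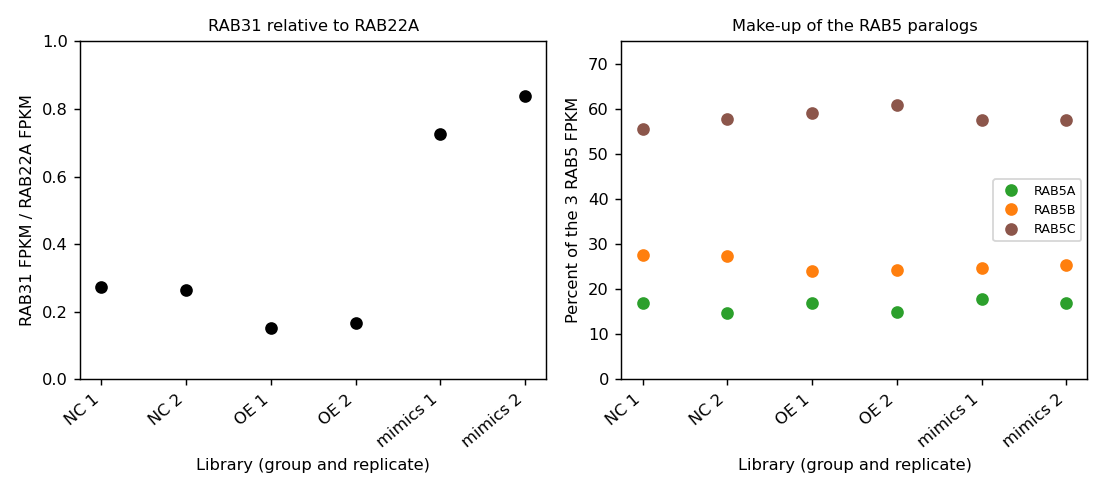
Left, FPKM of RAB31 divided by FPKM of RAB22A (y axis) in each library (x axis); right, percent of the summed FPKM of RAB5A, RAB5B and RAB5C held by each (y axis) in each library. The ratio lies at 0.15 to 0.28 in NC and OE and at 0.73 to 0.84 in mimics, and RAB5C holds more than RAB5B and RAB5B more than RAB5A throughout.

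The members differ in sequence, which bears on how reads are assigned to them. RAB31 and RAB22A shared 70.7% of aligned coding bases, RAB5B and RAB5C 78.2%, RAB5A and RAB5C 73.4% and RAB5A and RAB5B 72.5%, while RAB21 shared 58.5% to 62.3% with the others. The longest run of identical bases between any pair of principal transcripts was 47, between RAB22A and RAB21, and it was 20 at most for RAB31. No stretch of 50 bases of RAB31 occurred in an annotated transcript of another gene. In RAB5C, 36.2% of such stretches also lie in AC099811.2, an overlapping protein-coding gene on the same strand that was listed at 0 in all 6 libraries, so the assignment of reads to RAB5C is uncertain to that extent. RAB5A lies antisense to PP2D1 (2.21% of stretches, 0.0881 to 0.543 FPKM), and 8.63% of stretches in RAB21 are antisense to the noncoding AC089984.1. The use of strand in counting is not given in the sources used here.

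Expressed genes nearest on either side of RAB31 on chromosome 18 were looked up after its values were seen. PPP4R1, a phosphatase subunit 92925 bases before it, differed by 0.17 between mimics and NC (adjusted p = 0.344), and VAPA, an ER membrane anchor 51451 bases after it, by 0.22 (adjusted p = 0.192). In OE against NC they differed by -0.08 (adjusted p = 0.998) and 0.00 (1), so that neither gene passed in either comparison.

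The genes whose pattern over the 6 libraries came nearest to that of RAB31, by the distance between log2(FPKM + 0.5) values centred on each gene's mean among 12354 annotated genes, were P4HA1, TCIM, INMT, CRABP2 and P4HA2. Distances were 0.356 to 0.407 and Pearson's r was 0.978 to 0.996 over 6 libraries that form 3 groups, as a description. P4HA1 and P4HA2 encode catalytic subunits of prolyl 4-hydroxylase, the enzyme that hydroxylates collagen. P4HA1 went from 16.3 ± 0.492 FPKM in NC to 45.2 ± 2.69 in mimics and 13.2 ± 0.0989 in OE, and P4HA2 from 3.72 ± 0.00706 to 8.54 ± 0.216 and 2.67 ± 0.0640. TCIM was 2.58 ± 0.0831 FPKM in NC, 8.32 ± 0.752 in mimics and 1.46 ± 0.165 in OE. INMT, a methyltransferase of indoleamines, was 4.50 ± 0.647, 13.8 ± 0.285 and 3.02 ± 0.0436, and CRABP2, a carrier of retinoic acid, was 12.9 ± 1.14, 37.3 ± 0.849 and 10.5 ± 0.454 (SD, n = 2 each). Since the 5 genes were chosen for their likeness to RAB31, their values are a description, and no test is given.

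RAB31 was also set beside all expressed genes that hold an 8-base match to the miR-106a-5p seed. RAB31 and RAB5B are themselves in this class, and RAB31 is one of its genes called higher in mimics against NC. In mimics against NC the median log2 difference was 0.02 over 592 genes with an 8-base match, -0.00204 over 2804 with 7-base matches only and -0.00456 over 8736 with none, as a description with no test. Of the 592, 26 (4.39%) were called higher and 11 (1.86%) lower, against 427 (4.89%) higher and 382 (4.37%) lower of the genes with no match, and 96 (3.42%) higher and 99 (3.53%) lower of those with 7-base matches only. With the libraries rescaled without mitochondrially encoded genes, the calls were 18 higher and 19 lower with an 8-base match, 47 and 151 with 7-base matches only, and 298 and 589 with none, and the medians were -0.07, -0.09 and -0.09. Median UTR length also differed between these classes, at 3104 bases with an 8-base match and 707 with none. Of the 592, MKNK2, a kinase of the translation factor eIF4E, and EGLN3, a prolyl hydroxylase that acts on hypoxia-inducible factor, had a larger rise than RAB31, at 1.66 (adjusted p = 0.000881) and 1.43 (0.00223). Other genes of this class fell by more than RAB31 rose, among them EPHA4 (-3.32, adjusted p = 0.000206 by limma) and RGMA (-2.52, 0.000811). EPHA4 and RGMA were also lower in OE than in NC (-3.37, adjusted p = 0.00113, and -2.52, 0.0046). MKNK2, EGLN3, EPHA4 and RGMA were named after their values were seen. RAB5B, with its 8-base match, was one of the genes that did not pass.

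Around the members, 78 genes that load, switch or act with the RAB5 subfamily, in 6 lists, mostly did not pass the test. All 78 were in the table and 76 were tested, RIN2 and RIN3 being too low. These lists were drawn up with earlier results of these data known. In mimics against NC 1 rose and none fell (1.32% called against 8.0% of all rows, 13 at an unadjusted p under 0.05, median log2 difference -0.01 against -0.0021). In OE against NC none passed (0 of 76 by limma against 0.257% of all rows, 1 at an unadjusted p under 0.05, median -0.03 against -0.02). In OE against mimics 1 was higher and 1 lower in OE (2.63% against 7.84%, 10 at an unadjusted p under 0.05, median -0.02 against -0.02).

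Guanine nucleotide exchange factors, which load RAB proteins with GTP, had 0 of 7 tested members called by limma in both comparisons with NC. Over all rows 8.0% were called in mimics against NC and 0.257% in OE against NC. At such shares a list this short may hold no call, so that the count says little about these genes. ALS2CL, of the alsin family, was 0.941 and 0.958 FPKM in NC, 0.603 and 0.587 in OE, and in mimics 1.44 and 2.01. Its groups were separate, with OE lowest and mimics highest, and it passed in OE against mimics (-1.01, adjusted p = 0.0178) but not against NC (0.60 in mimics, adjusted p = 0.0894, and -0.40 in OE, 0.823). RIN1, a RAB5 exchange factor that also binds RAS, had the largest difference of this list in OE against NC (-0.57, adjusted p = 0.575). GAPVD1, an exchange factor for RAB5 and RAB31, was 13.5 and 16.6 FPKM in NC, 14.1 and 12.6 in OE, and in mimics 13.2 and 13.4, and RIN3, an exchange factor for RAB31, was 0.0397 to 0.108 FPKM in all libraries.

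None of 7 GTPase-activating proteins and none of 8 genes for prenylation and membrane extraction passed in any comparison by limma. Calls over all rows were 8.0% in mimics against NC, 0.257% in OE against NC and 7.84% in OE against mimics. At such shares lists this short may hold no call. The largest differences against NC were in RABGAP1 (0.30 in mimics, adjusted p = 0.185) and TBC1D2B (-0.19 in OE, 0.938), and in RABIF (-0.38 in mimics, 0.117) and CHM, the escort protein that presents RABs for prenylation (0.19 in OE, 0.998). In OE against mimics they were in USP6NL (0.30, 0.253) and RABGGTB, the catalytic subunit of the RAB prenylating enzyme (-0.33, 0.232).

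Of 24 effectors and tethers only PIK3C3 was called by limma in mimics against NC, where 8.0% of all rows were called. It encodes the lipid kinase that makes phosphatidylinositol 3-phosphate on early endosomes, and was 4.88 and 3.81 FPKM in NC, 4.72 and 4.67 in OE, and in mimics 6.86 and 6.999. Both mimics libraries lay above the other 4 (0.63 against NC, adjusted p = 0.0374, and -0.52 for OE against mimics, 0.0661). The call of PIK3C3 lay near the threshold and was not followed under other settings. The list had a median of -0.10 in mimics and -0.02 in OE, where RBSN had the largest difference (-0.23, adjusted p = 0.901). EEA1, the tether of early endosomes, was 5.13 and 3.87 FPKM in NC, 5.31 and 5.03 in OE, and in mimics 4.62 and 3.65. APPL2, an adaptor of a further class of RAB5 endosomes, stood at 11.8 to 13.1 FPKM throughout.

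Of 7 genes of the conversion from RAB5 to RAB7 none passed by limma (median -0.17 in mimics and -0.01 in OE against NC). Calls over all rows were 8.0% in mimics against NC, 0.257% in OE against NC and 7.84% in OE against mimics. A list this short may hold no call at such shares. MON1B, of the complex that activates RAB7, differed from NC by -0.51 in mimics (adjusted p = 0.0659) and by -0.33 in OE (0.77). CCZ1B, which has a near-identical copy in CCZ1 and is uncertain for that reason, had the largest difference in OE against mimics (0.34, 0.111). Of 23 genes of sorting from early endosomes none passed against NC, and BLOC1S1 was higher in OE than in mimics (0.53, adjusted p = 0.0492). That call lay near the threshold and was not followed under other settings. BLOC1S1 was 51.1 and 56.4 FPKM in NC and 44.5 and 33.8 in mimics (-0.46, 0.072), and STAM2 had the largest difference in OE against NC (0.20, 0.994).

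Cargo that early endosomes carry is described by single genes, with no count. TFRC, the transferrin receptor, was 59.3 and 53.97 FPKM in NC, 88.7 and 79.9 in OE, and in mimics 49.9 and 52.4, and passed in OE against mimics (0.71, adjusted p = 0.00728) but not in OE against NC (0.57, 0.116) or mimics against NC (-0.15, 0.421). Of receptors whose traffic involves RAB31, EGFR, IGF2R and M6PR did not pass in any comparison. EGFR was 82.6 and 78.5 FPKM in NC, 75.02 and 71.9 in OE, and in mimics 68.9 and 85.3, and IGF2R and M6PR, the mannose 6-phosphate receptors, stood at 11.7 to 16.03 and 33.8 to 38.04 FPKM.

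**Figure D5:**
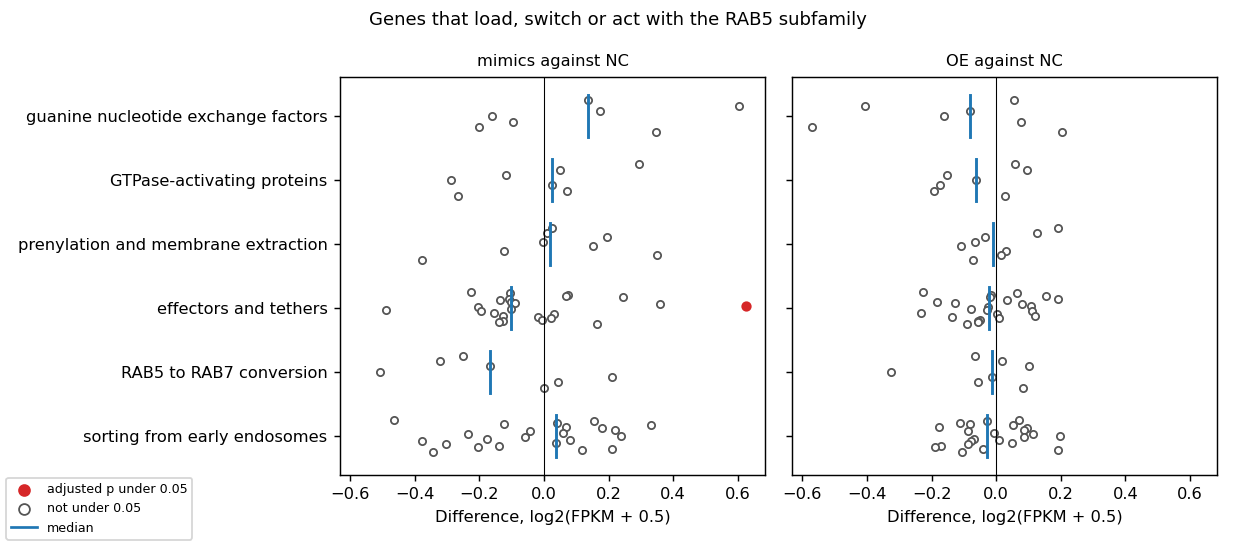
Difference on the log2(FPKM + 0.5) scale (x axis) of each tested gene in 6 lists (y axis) for mimics against NC (left) and OE against NC (right), with filled points for adjusted p under 0.05 and a bar at each list's median. The filled point is PIK3C3 (0.63) in mimics, and there is none in OE.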

How the data were processed

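The authors deposited FPKM values, 1 column per library. The submitters' processing notes name HISAT2 2.0.4 and GRCh38; for the counting tool, annotation and strand setting nothing is given in the sources used here. The labels' protocols name TRIzol for RNA and the Yeasen Hieff NGS Ultima kit for libraries.

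Groups and replicate numbers came from the sample titles. With limma 3.58.1 (R 4.3.3), log2(FPKM + 0.5) was fitted for the 13998 rows whose mean reached 0.5 FPKM. All 6 libraries entered 1 model (3 residual and 5.67 prior degrees of freedom) with an intensity trend, two-sided tests and Benjamini-Hochberg adjustment at 0.05. The pseudocount understates changes of low genes such as RAB31. Read counts were not recovered: among 158 to 200 low values of single-exon genes per library, 4.65% to 9.09% shared the most repeated value and 28 to 69 lay below it. Depth is therefore unknown, and error is the spread between replicates.

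Matches were searched in GENCODE 29, taking per gene the longest basic transcript, APPRIS principal where there was one; coding sequences were aligned with Biopython 1.88. The members, lists and markers were chosen with earlier results of these data known. Named genes were the members, called list genes (up to 4 a list, or the largest change where none was called) and the 5 nearest patterns. RIN3, GAPVD1, EEA1, APPL2, EGFR, IGF2R, M6PR, the neighbours of RAB31, MKNK2, EGLN3, EPHA4 and RGMA were added after their values were seen. 1 gene of the cargo list, which had passed in some comparisons, is not reported here, so no count or median is given for that list. Alternatives were other pseudocounts, filters and scalings, no trend, only the libraries compared, a replicate block, and leaving out each library.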

Additional observations from a re-analysis of the deposited data

How the results depend on the processing

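RAB31 kept its direction in all 3 comparisons under all 15 alternatives. Under those other than leaving out 1 library, RAB31 also kept its side of the threshold. The number of members called (1, 0 and 1) was then the same. Leaving out 1 library leaves a group with no spread of its own. For those fits only the direction and size of the members' differences are given. The difference of RAB31 was 1.14 to 1.49 in mimics against NC, -2.23 to -1.60 in OE against mimics and -0.75 to -0.46 in OE against NC. Apart from the fits that left out 1 library, its adjusted p by limma was 0.0027 to 0.0374 in mimics against NC. In OE against mimics the adjusted p was 0.000435 to 0.0221. Both were highest with no filter on low values. Of the recomputed differences of the other 5 members, 209 kept their sign, and 16, all of RAB22A, RAB5C or RAB21, changed it. None of these differences passed under the alternatives other than leaving out 1 library.

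The number of rows called moved more. In mimics against NC it was 1120, but 347 with no filter and 618 with only the 4 libraries compared, and 65 to 3018 without 1 library (65 and 161 without NC replicate 1 and 2, 600 and 617 without OE replicate 1 and 2, 3018 without mimics replicate 2). In OE against NC it was 36, but 0 with no filter (1334 at an unadjusted p under 0.05), 120 with only the 4 libraries compared and 5 to 121 without 1 library (5 to 8 without an NC or OE library, 118 and 121 without mimics replicate 1 and 2). In OE against mimics it was 1098, but 325, 654 and 136 to 2765 (629 and 630 without NC replicate 1 and 2, 136 and 183 without OE replicate 1 and 2, 2765 without mimics replicate 2). The split of calls moved with the rescaling without mitochondrially encoded genes, from 600 higher and 520 lower to 405 and 795 in mimics against NC, and from 353 and 745 to 557 and 509 in OE against mimics, where it was 573 and 751 with quantile normalization and 68 and 257 with no filter. A group left with 1 library is assumed to vary like the others.

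Replicate numbers were not shown to pair the libraries: deviations of same-numbered libraries correlated at -0.0268, 0.153 and 0.0194. With a replicate block RAB31 had adjusted p of 0.0149 in mimics against NC, 0.529 in OE against NC and 0.00658 in OE against mimics, and 938, 9 and 938 rows were called.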
